A study of Mus musculus with 6 samples.

Results

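The guanylate-binding proteins (GBPs) are large GTPases of the dynamin superfamily. The 10 genes described here (Gbp2 to Gbp11) were found by matching Ensembl gene IDs of the deposited table to these symbols, and all 10 were present among its 52856 rows. They were measured by RNA-seq in CD4+ T cells (the T cell class of helper cells) from spleens of 8-week-old C57BL/6 mice that were wild type (WT, 3 libraries) or miPEP31-/- (KO, 3 libraries). The cells of both groups were kept in medium with serum for 48 hours and activated there with anti-CD3 and anti-CD28, antibodies that mimic antigen recognition and costimulation. miPEP31 is a microRNA-encoded peptide, made from the precursor RNA of miR-31, and the comparison asks how its absence changes gene expression in these cells. The labels do not say how the allele was made or whether the libraries came from separate mice, so p-values measure the spread between these libraries, which may be technical.

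GBP genes are switched on by interferons. Interferon-gamma acts through promoter elements called GAS and through IRF1, while type I interferon acts through a complex with STAT2 and IRF9 that binds interferon-stimulated response elements (ISREs). The proteins assemble on vacuoles and on bacteria in the cytosol, help to break the membranes that hide pathogens, and promote inflammasome signalling through caspase-11 and AIM2. They are best studied in macrophages. In activated T cells, which make interferon-gamma themselves, the same genes are also interferon-inducible. In the mouse they lie in a cluster on chromosome 3 and another on chromosome 5.

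On GRCm38 (GENCODE M21), the chromosome 3 cluster holds 4 of these genes within 144 kb (142493978 to 142638008, forward strand), in the order Gbp5, Gbp7, Gbp3 and Gbp2. The chromosome 5 cluster holds the other 6 within 332 kb (105014150 to 105346472, reverse strand), in the order Gbp8, Gbp9, Gbp4, Gbp10, Gbp6 and Gbp11 by coordinate. Of the 10 genes, 9 are annotated as protein coding and Gbp11 as a polymorphic pseudogene. The clusters differ in how alike their members are, counting Gbp2b on chromosome 3 as well. In global alignments of the longest annotated coding sequences, the 15 pairs within chromosome 5 were 90.0% to 98.4% identical (median 90.9%). The 10 pairs within chromosome 3 were 66.3% to 82.5% identical (median 67.4%), and the 30 pairs between chromosomes had a median of 68.4%.

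The closest pair was Gbp6 and Gbp10, with 1803 of 1833 aligned coding bases identical and 30 differing. Only ungapped stretches within a single coding exon of each gene were searched, so sequence outside the coding region was not compared. The 60-base stretch with the most differences between the pair is shown. It lies at chr5:105274211-105274270 in Gbp6 and chr5:105218411-105218470 in Gbp10 (GRCm38, reverse strand, coding positions 1567 to 1626 in both), and capitals mark the 9 bases that differ.
Gbp6: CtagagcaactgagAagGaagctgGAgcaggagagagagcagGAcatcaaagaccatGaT
Gbp10: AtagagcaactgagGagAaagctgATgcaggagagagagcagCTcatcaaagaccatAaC
Of all 50-base words in Gbp10 transcripts, 84.1% also occurred in another gene, and in Gbp6 transcripts 70.7%. The protein-coding gene model Gm43302, which spans both genes, overlaps 46.3% of the exon bases of Gbp10 and 29.0% of those of Gbp6. For Gbp11 and Gbp8 the share of such words was 19.2% and 18.1%, for Gbp7 12.7%, with 10.5% found in Gm43802, a processed pseudogene inside its exons, and for Gbp9 and Gbp4 8.05% and 7.78%. It was 3.75% for Gbp3, 2.03% for Gbp2 and 1.44% for Gbp5. The deposited counts of Gbp6, Gbp8, Gbp10 and Gbp11 had decimals in 6 of 6 libraries, those of Gbp4, Gbp7 and Gbp9 in 5 and those of Gbp5 in 1, whereas Gbp2 and Gbp3 had whole counts in every library. Reads can therefore be split between Gbp6, Gbp10 and Gm43302, and the levels of Gbp6 and Gbp10 are uncertain as single genes.

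The RefSeq promoter table (GRCm38.p6) held entries for 4 of the 10 genes, all on chromosome 3, and for Gbp2b. Each entry runs from 250 bases before to 50 bases after an annotated start. An ISRE core (GAAA, any 2 bases, GAAA, on either strand) was present in a promoter of Gbp2, Gbp3, Gbp5 and Gbp7 and of Gbp2b, against 3.44% of all 32851 promoters of that length. A GAS pattern (TTC, any 3 bases, GAA, on either strand) was present in Gbp5 and Gbp7 and in 8.30% of all promoters. The second annotated promoter of Gbp3 held neither. The windows that follow hold a selection of these matches, with the matching bases in capitals, and are printed because Gbp2, Gbp3, Gbp5 and Gbp7, which lie next to them, were all higher in KO. Gbp2b had too few counts to be tested. In these the ISRE core reads in reverse complement. The Gbp2 window begins ahead of the GENCODE start of Gbp2, but its matching bases lie within the first exon of that model. The Gbp5 windows lie within the GENCODE span of Gbp5 but ahead of the RefSeq start used here. In Gbp5 and Gbp7 the GAS and ISRE matches do not overlap.
Gbp2 ISRE, chr3:142620594-142620623: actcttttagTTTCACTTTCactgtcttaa
Gbp3 ISRE, chr3:142559989-142560018: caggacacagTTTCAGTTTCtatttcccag
Gbp5 ISRE, chr3:142496759-142496788: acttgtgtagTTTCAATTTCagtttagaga
Gbp7 ISRE, chr3:142530273-142530302: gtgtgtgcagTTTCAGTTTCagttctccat
Gbp2b ISRE, chr3:142594700-142594729: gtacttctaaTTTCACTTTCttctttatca
Gbp5 GAS, chr3:142496872-142496901: tggccgttatTTCTCAGAAccaagcacaga
Gbp7 GAS, chr3:142530220-142530249: tccgttttctTTCCAGGAAaagcagaagct
Gbp7 GAS, chr3:142530239-142530268: aagcagaagcTTCTCAGAAagtcagcacaa
The ISRE matches shown for Gbp7, Gbp3 and Gbp2 began 53, 45 and 59 bases before the RefSeq start, and those of Gbp5 and Gbp2b 165 and 137 bases before it. Gbp3 held a second ISRE match, not printed, that overlaps the first. The GAS matches shown began 52 bases before the start in Gbp5 and 106 and 87 bases before it in Gbp7. A match describes letters only, and binding was not measured.

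Library totals ranged from 22865487 to 26295776 estimated counts. Mir31, the microRNA gene of the targeted locus, had 0 counts in every library of both groups and is no check of the genotype labels. Summed markers of CD4 T cells stood at 2517 to 2641 CPM (counts scaled to a common library size with TMM factors) in WT and 2395 to 2475 CPM in KO. Of the 10 markers, 7 were lower in KO and 1 higher, against 22.2% and 25.1% of all genes tested. The 1 called higher was Cd5, with means of 374 CPM in WT and 621 CPM in KO, which offset part of the falls in the sum. The largest falls among the 7 were in Cd4 (456 to 302 CPM) and Trac (241 to 166 CPM). All 10 GBP genes passed the low-count filter and were tested with edgeR's quasi-likelihood test, with p-values adjusted over 14387 genes and 0.05 as the threshold.

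GBP genes were higher in the KO. Of the 10, 9 passed the test as higher, where 25.1% of all genes tested did. None of the 10 passed as lower (0, against 22.2% of all genes), and 1, Gbp11, did not pass. In either direction 47.3% of all genes passed, so change by itself was common in this comparison. No member was lower at an unadjusted p under 0.05 either, and DESeq2 and limma-voom also called 9 higher and 0 lower. In 9 members the 3 KO libraries lay above the 3 WT libraries, against 30.6% of all genes tested. In 8 the log2 fold change was at least 1, a size that 6.74% of all genes passed as higher. The median log2 fold change of the 10 was 1.47, and that of all genes tested was 0.01. Summed over the family, the level went from 490.3 ± 34.1 CPM in WT to 1402 ± 234 CPM in KO (SD, n = 3 each), or 2.86-fold. In RNA from bulk cells, more cells that express a gene and more RNA per cell cannot be told apart.

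**Figure D1:**
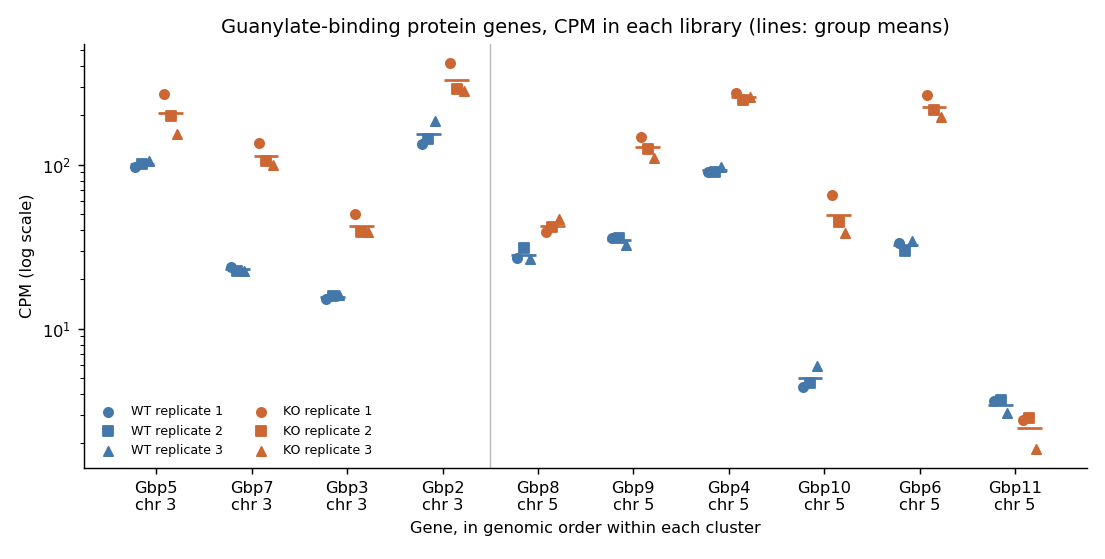
CPM of each guanylate-binding protein gene (log axis) in the 3 WT and 3 KO libraries, grouped by chromosome, with short lines at the group means. In 9 genes the KO libraries lie above the WT libraries, and Gbp11 is the exception.

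On chromosome 3, Gbp2 (ENSMUSG00000028270, 142620602 to 142638008) had the highest level per exon length in the family. It encodes a prenylated GBP that is recruited to the vacuole of Toxoplasma gondii. Its level was 134, 143 and 186 CPM in WT replicates 1, 2 and 3 and 416, 292 and 283 CPM in the KO replicates. The groups did not overlap, although WT replicate 3 stood above the other WT libraries and KO replicate 1 above the other KO libraries. The means were 154 ± 27.8 and 330.1 ± 74.3 CPM (SD, n = 3), and edgeR gave log2 fold change 1.10 with SE 0.17 (adjusted p = 0.00149).

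Gbp5 (ENSMUSG00000105504, 142493978 to 142522344), another prenylated member, which is known as a promoter of inflammasome assembly, stood at 97.0, 101 and 105 CPM in WT. In the KO it stood at 271, 197 and 154 CPM. This was the widest spread among KO libraries in the family, 1.76-fold from lowest to highest, with WT libraries within 1.09-fold of each other. The edgeR estimate on the log2 scale was 1.04 with SE 0.18 (adjusted p = 0.00219), and 0.79 without KO replicate 1.

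Gbp7 (ENSMUSG00000040253, 142530342 to 142550149), which has been linked to host defence through oxidase assembly, changed most on this chromosome. It had 23.9, 22.6 and 22.6 CPM in WT and 136, 105 and 99.8 CPM in KO. The lowest KO library was thus far above the highest WT library, and the rise was 4.93-fold (in edgeR, log2 fold change 2.30 with SE 0.12 and adjusted p = 1.21e-05). Its embedded pseudogene Gm43802 had 0 to 5.73 counts in WT libraries and 42.1 to 62.6 in KO libraries, few beside the 2320 to 3164 counts of Gbp7 itself in KO.

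Gbp3 (ENSMUSG00000028268, 142560026 to 142573209), the nearest relative of Gbp7 in coding sequence (79.5% identical), had 15.3, 15.8 and 16.0 CPM in WT and 49.99, 38.7 and 39.0 CPM in KO. The WT values were within 1.05-fold of each other, and every KO value exceeded them. The rise was 2.71-fold (in edgeR, log2 fold change 1.44 with SE 0.11 and adjusted p = 5.70e-05). Gbp2b, the chromosome 3 gene between Gbp3 and Gbp2 whose coding sequence is 82.5% identical to that of Gbp2, was close to absent. It had 2, 6 and 3 counts in WT and 4, 2 and 6 in KO, too few to pass the low-count filter, so a difference was not detectable at this depth.

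On chromosome 5, the close relatives Gbp6 and Gbp10 had the 2 largest fold changes of the family. Gbp6 (ENSMUSG00000104713, 105270702 to 105293698) had 33.4, 29.8 and 34.2 CPM in WT and 266, 215 and 196 CPM in KO. It rose 6.95-fold, with a edgeR log2 fold change of 2.80 with SE 0.12 (adjusted p = 4.46e-06). Gbp10 (ENSMUSG00000105096, 105215699 to 105239533) had 4.42, 4.65 and 5.96 CPM in WT and 65.8, 45.0 and 38.2 CPM in KO. It rose 9.91-fold, with a edgeR log2 fold change of 3.31 with SE 0.23 (adjusted p = 3.23e-05).

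Both genes were higher in every KO library than in any WT library. The gene model Gm43302 went with them, at 3.29, 2.28 and 3.79 CPM in WT and 31.0, 23.1 and 23.3 CPM in KO. With the counts of Gbp6, Gbp10 and Gm43302 summed to 1 row, an alternative chosen after seeing the data, the edgeR log2 fold change was 2.89 with SE 0.14 (adjusted p = 6.80e-06). This summed value does not depend on how reads were divided among the 3. The ratio of Gbp10 to Gbp6, 0.154 ± 0.0212 in WT and 0.217 ± 0.0274 in KO (SD, n = 3), does depend on that split.

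Gbp9 (ENSMUSG00000029298, 105077630 to 105139539) had 35.6, 35.7 and 32.6 CPM in WT and 149, 125 and 110.1 CPM in KO. The edgeR estimate on the log2 scale was 1.89 with SE 0.11 (adjusted p = 1.74e-05). Gbp4 (ENSMUSG00000079363, 105115767 to 105139586) had 90.0, 90.8 and 96.6 CPM in WT and 273, 249 and 259 CPM in KO. Its KO libraries lay within 1.10-fold of each other, the tightest in the family, and its edgeR log2 fold change was 1.49 with SE 0.06 (adjusted p = 3.87e-06). In both genes the groups were far apart relative to the spread within them.

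Gbp8 and Gbp11 stood apart from their neighbours in size or direction. Gbp8 (ENSMUSG00000034438, 105014150 to 105139540) had 27.1, 30.9 and 26.6 CPM in WT and 39.1, 41.5 and 46.6 CPM in KO. The groups did not overlap, but the rise was smaller than in the other 8 genes that passed (in edgeR, log2 fold change 0.59 with SE 0.09 and adjusted p = 0.00156). Gbp11 (ENSMUSG00000092021, 105323042 to 105346472), the pseudogene, had 3.64, 3.68 and 3.05 CPM in WT and 2.76, 2.87 and 1.85 CPM in KO. All KO values lay below the WT values, which 28.4% of all genes tested showed, yet the test did not pass (in edgeR, log2 fold change -0.47 with SE 0.22 and adjusted p = 0.115). Across 15 alternative settings its log2 fold change ranged from -0.59 to -0.31 and never passed (adjusted p 0.0900 to 0.251). Gbp8, Gbp9 and Gbp4 share 60 or 61 exon bases at their annotated 5′ ends, at most 1.77% of the exon bases of any of them.

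**Figure D2:**
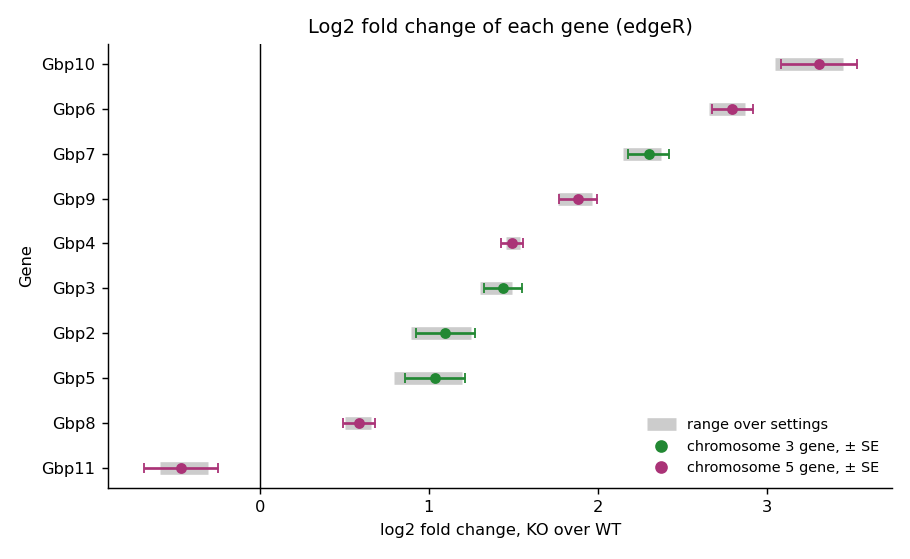
Log2 fold change of KO over WT for each gene in order of size, with bars for the SE of the edgeR fit and grey bands for the range over 15 alternative settings. The values run from 3.31 for Gbp10 to -0.47 for Gbp11, and chromosome 3 and chromosome 5 genes are mixed in the order.

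Ordered by fold change, the members were Gbp10, Gbp6, Gbp7, Gbp9, Gbp4, Gbp3, Gbp2, Gbp5, Gbp8 and Gbp11. Taking each KO library relative to the WT mean, the ranges of neighbours in this order did not overlap between Gbp6 and Gbp7, Gbp7 and Gbp9, Gbp9 and Gbp4, or Gbp8 and Gbp11. They did overlap between Gbp10 and Gbp6 and along the run Gbp4, Gbp3, Gbp2, Gbp5 and Gbp8, so the spread between KO libraries does not separate each of these genes from the next.

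The KO libraries differed among themselves, in a similar way for most members. KO replicate 1 had the highest value of the 3 for 8 of 10 members, all but Gbp8 and Gbp11, and KO replicate 3 the lowest for 7. The share of all genes tested with the same highest or lowest KO library was not taken. Gbp8 went the other way, with its lowest KO value in replicate 1 and its highest in replicate 3. The family sum relative to the WT mean was 1.77, 1.42 and 1.33 on the log2 scale in KO replicates 1, 2 and 3, and between -0.08 and 0.11 in the WT libraries. Ifng, the gene of interferon-gamma, had 168, 91.6 and 38.9 CPM in the same KO libraries and 61.0, 105 and 62.8 CPM in WT. It was thus also highest in KO replicate 1, with groups that overlapped, and its part in the spread of GBP levels was not tested.

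**Figure D3:**
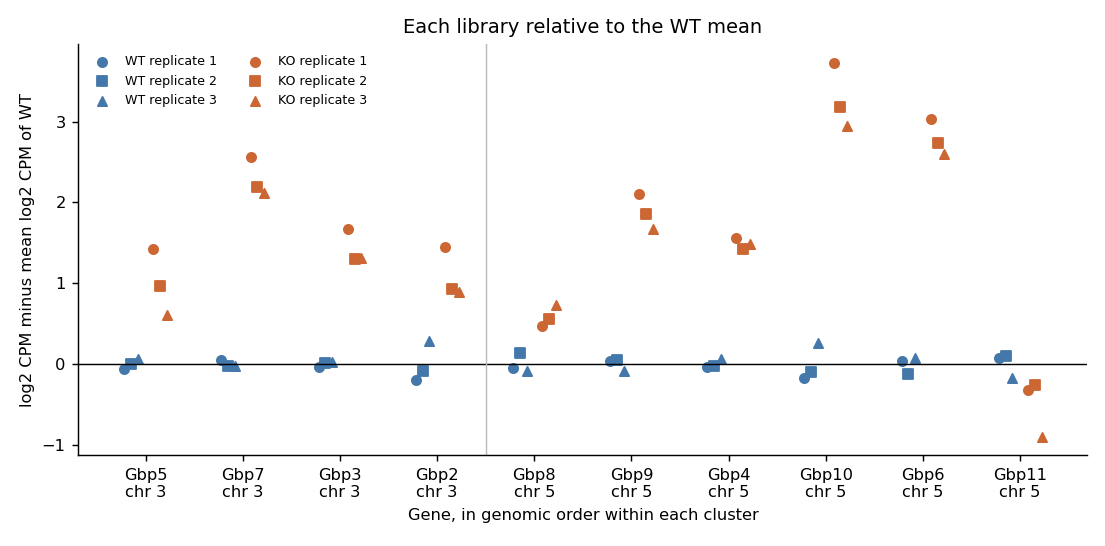
Log2 CPM of each library minus the mean log2 CPM of the WT libraries, by gene. KO replicate 1 (orange circles) is the highest KO library for 8 genes, while Gbp8 is highest in KO replicate 3 (orange triangles).

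The clusters were compared by summing CPM over their members, as a description without a test. The 4 chromosome 3 genes summed to 270, 283 and 329.9 CPM in WT and 873, 632 and 576 CPM in KO. The 6 chromosome 5 genes summed to 194, 196 and 199 CPM in WT and 795, 679 and 651 CPM in KO. Both sums were higher in every KO library, by 2.36-fold for chromosome 3 (from 294 ± 31.7 to 694 ± 158 CPM) and 3.61-fold for chromosome 5 (from 196 ± 2.39 to 708 ± 76.2 CPM, SD, n = 3).

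The balance between the cluster sums shifted with genotype. Chromosome 5 genes held 41.9%, 40.9% and 37.6% of family CPM in WT and 47.7%, 51.8% and 53.1% in KO. As the log2 of the chromosome 5 sum over the chromosome 3 sum, this was -0.58 ± 0.13 in WT and 0.05 ± 0.16 in KO (SD, n = 3), a difference of 0.63 with no overlap between groups, and 0.62 with CPM per kb of exon. The difference depended on which members were summed. Without Gbp6 and Gbp10 it was 0.23, and the KO libraries (-0.91 to -0.47) overlapped the WT libraries (-1.06 to -0.79). Leaving out these genes, which rose most, must lower it. On chromosome 3, Gbp2 and Gbp5 made up most of the sum and rose 2.14-fold and 2.05-fold. Gbp3 and Gbp7 rose 2.71-fold and 4.93-fold from lower levels. The rise of Gbp7 exceeded the 3.61-fold rise of the chromosome 5 sum, and that of Gbp3 did not. Sums without Gbp2 and Gbp5 were not taken, so the shift describes the sums over all members only. The medians of the members' log2 fold changes were 1.27 on chromosome 3, where 4 of 4 were called higher, and 1.69 on chromosome 5, where 5 of 6 were. The values ran from 1.04 to 2.30 on chromosome 3 and from -0.47 to 3.31 on chromosome 5.

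**Figure D4:**
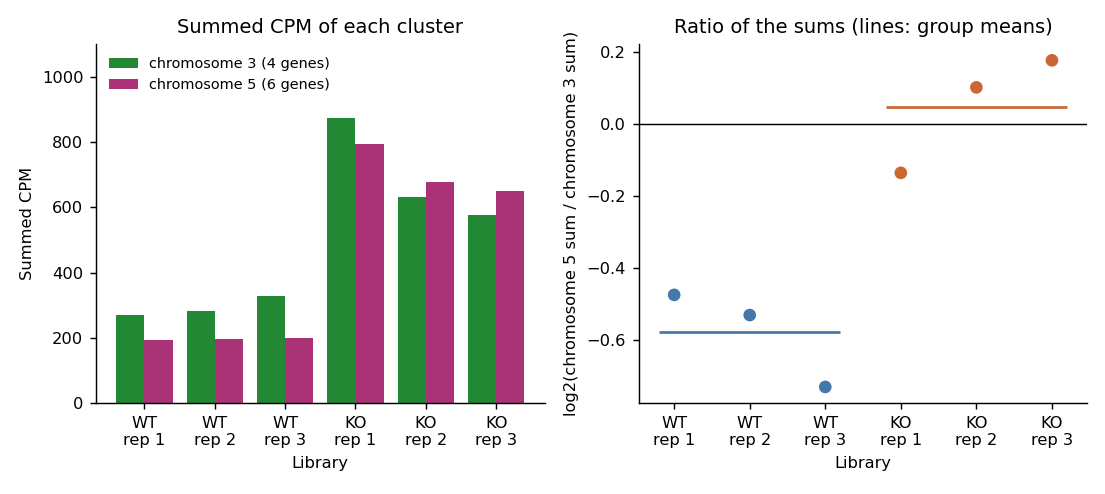
Left, CPM summed over the 4 chromosome 3 and the 6 chromosome 5 genes in each library. Right, log2 of the chromosome 5 sum over the chromosome 3 sum, with lines at the group means of -0.58 (WT) and 0.05 (KO).

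Levels were compared between members as CPM per kb of exon (union of annotated exons). The union was 2516 bases for Gbp2, 6637 for Gbp5 and 7494 for Gbp4, with longest coding sequences of 1767, 1770 and 1893 bases. The order depends on these lengths, and which annotated exons the cells express was not examined. In plain CPM the KO means of Gbp2 and Gbp4 were 330 and 260. Gbp2 led in both groups, at 61.3 ± 11.0 in WT and 131 ± 29.5 in KO (SD, n = 3), and its lowest library stood above every library of the next gene. In WT it was followed by Gbp5 (15.2), Gbp4 (12.3), Gbp8 (8.19), Gbp9 (6.69), Gbp6 (5.45), Gbp3 (4.81), Gbp7 (4.11), Gbp10 (1.29) and Gbp11 (1.28), and only Gbp10 and Gbp11 had overlapping ranges. In KO Gbp2 was followed by Gbp6 (37.9), Gbp4 (34.7), Gbp5 (31.2), Gbp9 (24.7), Gbp7 (20.2), Gbp3 (13.03), Gbp10 (12.8), Gbp8 (12.3) and Gbp11 (0.926). There the ranges of neighbours overlapped from Gbp6 to Gbp7 and from Gbp3 to Gbp8. Gbp6 was the sixth in WT and the second in KO, and its share of family CPM went from 6.63% ± 0.503 to 16.1% ± 0.272. Over the same libraries Gbp2 went from 31.3% ± 3.38 to 23.4% ± 1.38, Gbp5 from 20.6% ± 0.605 to 14.6% ± 1.87 and Gbp4 from 18.9% ± 0.579 to 18.8% ± 2.35 (SD, n = 3).

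**Figure D5:**
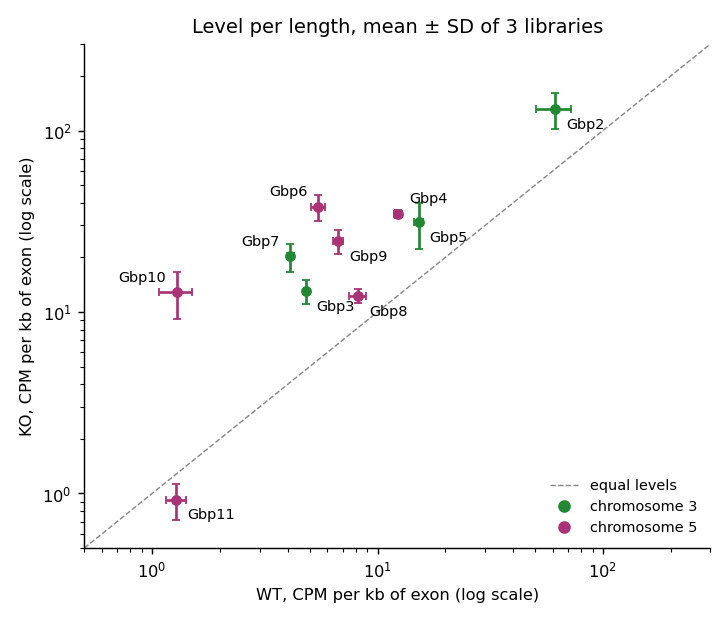
Mean CPM per kb of exon in KO against WT (log axes, bars: SD of 3 libraries), with a dashed line of equal levels. Gbp2 is the most abundant per length in both groups, Gbp10 lies farthest above the line and Gbp11 below it.

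Genes of the interferon pathways that act on the family were taken from the receptors to the transcription factors. Changes of the genes named from these lists are edgeR log2 fold changes. The calls counted in each list stand beside 25.1% higher and 22.2% lower over all genes tested. On the interferon-gamma side, the transcription factor gene Irf1 had 89.6, 96.7 and 104 CPM in WT and 217, 189.5 and 217 CPM in KO. It rose by 1.10 (SE 0.08), Socs1, a feedback inhibitor of Janus kinases, by 0.80 (SE 0.10) and Irf2 by 0.50 (SE 0.06). Irf8 was lower (log2 fold change -0.77, SE 0.12). Ifng, the receptor genes Ifngr1 and Ifngr2 and the kinase genes Jak1 and Jak2 did not pass.

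Of 7 genes from the type I interferon receptor to ISGF3 and its feedback, 6 were higher, 0 lower and 1, Ifnar1, did not pass (median 1.87). Irf7 rose by 6.31 (SE 0.19), Usp18, which restrains the receptor, by 2.89 (SE 0.25), Irf9 by 2.06 (SE 0.07) and Stat2 by 1.87 (SE 0.07). In the KO libraries, Usp18 (269, 181 and 127 CPM in replicates 1, 2 and 3) and Irf7 (188, 162 and 126 CPM) were highest in replicate 1 and lowest in replicate 3, the order also seen in Gbp2, Gbp5, Gbp6, Gbp7, Gbp9 and Gbp10. Stat2 (253, 269.9 and 282 CPM) and Irf9 (105, 103 and 112 CPM) were highest in replicate 3.

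The immunity-related GTPases, which load onto the same vacuoles as GBPs, were also higher. Together with the giant GTPase gene Gvin1, 14 of 15 tested members were higher, 0 lower and 1, Irgq, did not pass (median 2.24). Irgm1, a regulator of the group, rose by 2.77 (SE 0.11), Tgtp2 by 2.85 (SE 0.16), Gm4951 by 5.03 (SE 0.29) and Gm5431 by 6.00 (SE 0.32). Gm5431 had 1 to 2.04 counts per library in WT and 103 to 143 in KO, so the size of its rise is uncertain. Gm4951 had 15 to 21 counts in WT. Members of this group have close copies as well, so single levels are uncertain. Among other GTPases of the dynamin superfamily, 14 were tested, with 6 higher, 2 lower and 6 not past the threshold (median 0.00). Over all genes tested, 25.1% were called higher and 22.2% lower. The antiviral genes Mx1 and Mx2 rose by 6.87 (SE 0.50) and 5.73 (SE 0.36) and Ehd1, of endosomal recycling, by 0.56 (SE 0.08), while Dnm1, the neuronal dynamin gene, fell by 3.83 (SE 0.27). The atlastin genes Atl1, Atl2 and Atl3, relatives of GBPs by fold, had log2 fold changes of -0.31, 0.01 and -0.06 and did not pass. The 2 called lower became 1 when any WT library, or KO replicate 2 or 3, was left out, with plain library sizes and with a replicate block, and 3 without KO replicate 1.

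Prenyl groups anchor Gbp2 and Gbp5 in membranes. For the lists that follow, the shares over all genes tested were again 25.1% higher and 22.2% lower. Of 8 genes of prenylation and its later steps, 6 were higher and 2 lower (median 0.39), with Icmt at 0.39 (SE 0.06), Fnta at 0.43 (SE 0.06), Zmpste24 at 0.54 (SE 0.09) and Rabggta at -0.72 (SE 0.09). Of 11 genes of ATG8 conjugation, which is needed to place GBPs on vacuoles, 6 were higher, 1 lower and 4 did not pass (median 0.30). Gabarap rose by 0.59 (SE 0.11), Atg5 by 0.51 (SE 0.10) and Gabarapl1 by 0.36 (SE 0.07), and Atg16l1 fell by 0.36 (SE 0.06). Of 7 tested inflammasome and pyroptosis genes, 6 were higher, 0 lower and 1, Il1b, did not pass (median 1.11). That median is the value of Il1b itself, which had 3 to 22 counts per library. Il18, called higher, had 1 to 4 counts in WT and 15 to 22 in KO. Casp1 rose by 2.11 (SE 0.18), Casp4, the gene of caspase-11, by 1.88 (SE 0.19), Gsdmd, the pore-forming gasdermin D, by 0.64 (SE 0.08) and Pycard by 0.63 (SE 0.07).

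Of 10869 genes compared, those closest to the summed GBP level over the 6 libraries, by root mean square distance of log2 CPM after subtracting the WT mean, were Rasal2 (0.0697), Ifi47 (0.0702), Gadd45b (0.0974), Adar (0.102) and Lgals9 (0.103). Ifi47, itself an immunity-related GTPase, went from 66.0 ± 3.30 to 180.2 ± 38.5 CPM (SD, n = 3). Adar, an RNA-editing enzyme with an interferon-inducible form, went from 90.8 ± 2.96 to 266 ± 18.0 CPM, Lgals9, the gene of galectin-9, from 90.4 ± 3.70 to 242 ± 35.1 and Gadd45b, a stress-response gene, from 34.4 ± 2.26 to 95.4 ± 17.0. Rasal2, a regulator of Ras, was at 0.890 ± 0.101 and 2.52 ± 0.553 CPM, which rests on 19 to 73 counts per library.

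Markers of other cells were examined because macrophages also express GBPs. The calls in this and the next paragraph stand beside 25.1% higher and 22.2% lower over all genes tested. Of 11 macrophage and monocyte markers, 3 were tested, 1 was higher and 1 lower, and Adgre1, C1qb, C1qc and Fcgr1 had 0 counts in all 6 libraries. Their sum was 6.49 to 9.75 CPM in WT and 33.9 to 65.6 CPM in KO. Mpeg1, the marker called higher, had 1.08, 0.929 and 1.74 CPM in WT and 62.6, 37.97 and 27.8 CPM in KO and made up most of the KO sum. Lyz2 had 0, 0 and 1 counts in WT and 5, 7 and 10 in KO, too few to be tested. Itgam was called lower, and Cd68 did not pass. Without Mpeg1, which was singled out after its values were seen, the sum was 4.74 to 8.67 CPM in WT and 3.06 to 6.11 CPM in KO, most of it from Cd68.

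Summed NK cell markers were at 5.70 to 7.93 CPM in WT and 11.1 to 22.0 CPM in KO. Most of that was Eomes, the 1 marker called higher of 3 tested, with 6.85, 4.56 and 4.61 CPM in WT and 21.4, 15.3 and 9.89 CPM in KO. Klrb1c and Klre1 did not pass (log2 fold changes -1.01 and -0.63). Summed dendritic cell markers were at 6.25 to 7.58 and 12.0 to 13.1 CPM, with Zbtb46 the 1 called higher of 3 tested and Clec9a and Cd209a at 0 counts. Of the B cell markers, Cd79a, Cd79b and Ms4a1 were called higher, with log2 fold changes of 1.04, 0.76 and 0.92, while Pax5 did not pass (-0.30). CD8 markers summed to 12.5 to 15.8 and 15.9 to 36.9 CPM, with Cd8a higher (in edgeR, log2 fold change 1.89 and adjusted p = 0.00232) and Cd8b1 not past the threshold. The order of the KO libraries differed between markers. In the CD8 sum, and in these 3 B cell markers, KO replicate 3 was the highest and KO replicate 1 the lowest. In Mpeg1, Eomes and Zbtb46 (10.6, 10.2 and 7.27 CPM in KO), KO replicate 1 was the highest and KO replicate 3 the lowest. Of the neutrophil markers, S100a8, S100a9 and Retnlg had 0 counts in all 6 libraries. The sum was thus Ly6g alone (0.760 to 1.39 CPM in WT, 0 to 0.186 in KO), which was called lower. Summed erythroid markers (0.887 to 1.82 and 0.474 to 0.559 CPM) were lower in every KO library, but none was tested. Among them only Hbb-bt had groups that did not overlap (means 0.531 and 0.0248 CPM). The part of macrophages, dendritic, NK, B and CD8 T cells in the GBP result was not tested.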

How the data were processed

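Gene-level values in the authors' table are estimated counts, of which 72.2% of those above 0 were whole. Bowtie 0.12.2 and the build mm8 appear, without a role, in the submitters' processing notes. For the counting step, its annotation and its strand setting, the sources used here give nothing. A deposited 30-gene table held 0 of these genes and was not used. The 944 rows with assembly identifiers (MSTRG) and no gene symbol (0.903% to 1.56% of counts) stayed in library sizes.

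Counts were rounded. Genes were kept with filterByExpr (minimum count 10), which left 14387, scaled with TMM and tested with edgeR 4.0.16 (quasi-likelihood, robust, no covariate) in R 4.3.3, with Benjamini-Hochberg adjustment and a threshold of 0.05. Each SE was taken as the unshrunk log2 change divided by the root of F. DESeq2 1.42.0, limma-voom (limma 3.58.1), other scalings, filters and left-out libraries were alternatives. The fit was tested on simulated data. Coordinates, exon lengths and coding sequences come from GENCODE M21, matched by gene ID, and promoters from RefSeq. Protein sequences were not analysed here. The members and lists were chosen with earlier results of these data known. All members were named, and up to 4 genes per list by smallest p, with the 5 genes closest to the family sum among those of at least 1 CPM with a proper name. Other list members and the neighbouring gene models were named to account for counts. Some listed genes, the counts of the lists that hold them and 1 promoter match are not reported here.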

Additional observations from a re-analysis of the deposited data

How the results depend on the processing

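The counts of 9 members higher and 0 lower were the same under 15 other settings: RLE, upper-quartile or plain scaling, no low-count filter, a filter at 1 CPM in 3 or more libraries, DESeq2, limma-voom, non-robust estimation, a replicate block, and leaving out each library in turn. Every member kept its direction and its side of the threshold in each. The count of 8 with a log2 fold change of at least 1 did change. Gbp5 fell below 1 with upper-quartile scaling (0.996), limma-voom (0.998) and a replicate block (0.999). Without KO replicate 1, both Gbp5 (0.795) and Gbp2 (0.895) did. The difference between the clusters was 0.63, between 0.55 and 0.72 when 1 library was left out, 0.42 when taken from medians of the members' log2 fold changes, and 0.23 without Gbp6 and Gbp10, an alternative chosen after seeing the data. Same-numbered libraries did not deviate together (correlations 0.0010, -0.0072 and -0.016), so the labels' numbers were not treated as pairs. The replicate block left 9 members higher and moved the calls over all genes from 3609 to 3049 higher. Sums weight members by level, with Gbp2 and Gbp5 the largest on chromosome 3, whereas medians count each member equally. How much of the smaller cluster difference from medians comes from this was not tested. At 2 to 6 counts per library, Gbp2b allows no comparison.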
